A study of Mus musculus with 2 samples.

Results

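The promoters of mouse protein-coding genes that are rich in the dinucleotide CpG were examined for Gata3 binding in TH2 cells. A promoter was the window of 500 bp either side of the annotated gene start (GENCODE M21, GRCm38, chromosomes 1 to 19). It counted as CpG-rich when the genome sequence of the window held at least 0.75 of the CpG that its base composition predicts and had a GC content of at least 55%. No read count entered this choice. It was met by 5341 of 20807 promoters. The other 15466 are used below for comparison. CpG-rich promoters had a median GC content of 64.0% and a median observed/expected CpG of 0.855, and the others had 51.9% and 0.369.

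The data were 2 Gata3 ChIP-seq libraries of TH2 cells that the labels number as replicates 1 and 2 of 1 condition. The labels describe the cells as splenic TH2 subsets expanded in vitro. The study's culture methods start from splenic naïve CD4+ T cells. These were stimulated through CD3 and CD28 with IL-2, and the TH2 condition added IL-4 and an antibody that neutralises IFN-γ. The labels name ILC2 in the chromatin protocol and TH2 cells elsewhere, and the study's methods name TH2 cells. Bound chromatin was tagmented on the beads (ChIPmentation), a method in which a transposase cuts the precipitated DNA and attaches the sequencing adaptors. No genotype, sex or age is given in the labels, no source states whether the replicates came from separate animals or cultures, and no input library was used here.

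Most vertebrate DNA has lost CpG because methylated cytosine mutates to thymine, and the stretches that keep it, CpG islands, lie at the promoters of most broadly expressed genes and of many developmental regulators. Their chromatin tends to be open. Gata3 is a zinc finger transcription factor that T helper cells need to become TH2 cells, and it recognises short A- and T-rich DNA words with GATA at their core. Such words are rarer in sequence of high GC content. A CpG-rich promoter thus tends to combine accessible chromatin with few words that the factor recognises.

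The term GATA word stands here for AGATAA and its variant with a final G (AGATAG), on either strand. It also covers the same pair with a first T in place of the A (TGATAA, and TGATAG with the final G). The following stretches of 101 bases are centred on the summits of the tallest shared peaks that had a GATA word within 100 bp and lay before the gene start, outside annotated exons. They are plus-strand GRCm38 sequence, and the capitals mark each GATA word.

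Tcf3, chr10:80433900-80434000: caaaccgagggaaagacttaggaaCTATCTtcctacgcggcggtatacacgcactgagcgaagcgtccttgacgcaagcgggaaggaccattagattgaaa
Ralgapb, chr2:158409350-158409450: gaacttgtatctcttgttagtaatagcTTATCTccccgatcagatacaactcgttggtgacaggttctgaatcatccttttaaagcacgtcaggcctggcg
Eif4enif1, chr11:3202000-3202100: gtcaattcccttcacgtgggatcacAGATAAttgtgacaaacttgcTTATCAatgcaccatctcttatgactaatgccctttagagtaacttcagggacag

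For other promoters described below, only the GATA word nearest to the summit is shown, with 10 bases on each side, also on the plus strand. These sites of 26 bases were chosen after the values had been seen.

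Diaph3, chr14:87141210-87141235: ctgggccaatCTATCTgaaatctccc
BC003965, chr17:25184419-25184444: taagtcgtccAGATAGtgatcagggc
Lsm4, chr8:70673639-70673664: tcaccgtcatTGATAGgaaagctgcg
Rpl19, chr11:98026418-98026443: aagcatccagAGATAGggatctgcgg
Wsb1, chr11:79254685-79254710: cgggcggcacTGATAAtatctgggag
Rad50, chr11:53706981-53707006: gataatctgcTTATCTttatcctcta

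For contrast, the summit of the Nhp2 promoter peak, chosen after its values had been seen, lay in 101 bases without a GATA word.

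Nhp2, chr11:51619600-51619700: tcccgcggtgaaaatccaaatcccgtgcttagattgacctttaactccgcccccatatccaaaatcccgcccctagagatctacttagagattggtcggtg

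Signal was the number of reads in the promoter window, after moving each 5′ end by 100 bp towards its 3′ end, scaled to a library of 1000000 reads (RPM). Library 1 held 40504814 reads on chromosomes 1 to 19, X and Y and library 2 held 24959052, and the genome mean was 14.9 and 9.17 reads per window, or 0.367 RPM in either. The median CpG-rich promoter had 29 reads in library 1 and 21 reads in library 2. At this depth a promoter near the median is known only to within its counting error, and intervals given below cover counting error only. In 84 CpG-rich promoters no read was listed in either library. They are not analysed here as single genes, and they stay in the shares below unless stated.

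CpG-rich promoters carried more reads than other promoters, and the excess was small at most of them. Their median was 0.716 RPM in library 1 and 0.841 RPM in library 2, against 0.543 and 0.561 RPM at the other promoters. Windows without a read are included, and they were more frequent among the others. They numbered 86 of 5341 CpG-rich promoters in either library, and 1051 of 15466 others in library 1 and 1175 in library 2. Between the 25th and the 75th percentile, CpG-rich promoters reached from 0.543 to 1.01 RPM in library 1 and from 0.601 to 1.12 RPM in library 2. The upper tail was long, with a 95th percentile of 2.27 and 2.08 RPM and a highest value of 15.1 and 16.0 RPM. Relative to the sequence 2 to 10 kb away on either side, the median fold was 1.34 in library 1 and 1.57 in library 2, and at other promoters it was 1.07 and 1.11. Promoters are not replicates of a condition, and 1 condition allows no test between groups of promoters.

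The levels of CpG-rich promoters were compared between the libraries. Across the 5341 promoters, which are not independent samples, Pearson's r of log2(RPM + 0.1) was 0.855 and Spearman's rho was 0.729. The log2 ratio of library 1 to library 2 had an SD of 0.53 over the 5253 promoters with reads in both. By a two-sided exact binomial test with Benjamini-Hochberg adjustment, 39 CpG-rich promoters (0.730%) had read counts that differed between the libraries at an adjusted p of 0.05, beside 0.404% of all promoters. Library 1 was the higher at 25 of them and library 2 at 14. Of genes described below, Ctcf, Rpl10a and Zfp553 were among the 39, all higher in library 1. The smallest adjusted p, 3.72e-04 in the two-sided exact binomial test, belonged to the overlapping windows of Polh, a DNA polymerase for damaged templates, and Xpo5, an exporter of microRNA precursors, both named after their values were seen. Polh had 3.58 RPM in library 1 and 1.44 RPM in library 2. The read names show a different sequencing instrument for each library, so library and sequencing run cannot be told apart.

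**Figure D1:**
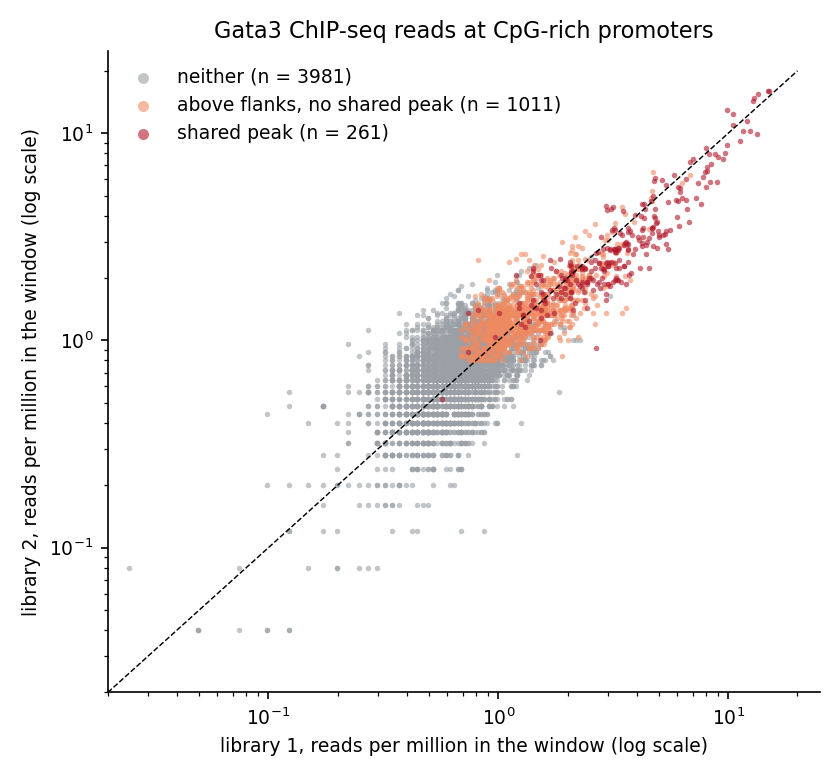
RPM in the window of each CpG-rich promoter with a read in both libraries, library 1 on the horizontal and library 2 on the vertical log axis, 1 point per promoter, with the line of equal values dashed. Red points have a shared peak (261), orange points lie above their flanks without one (1011), and grey points have neither. Points lie along the line up to the highest values of 15.1 and 16.0 RPM.

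Fewer CpG-rich promoters had a shared peak than lay above their flanks. Peaks were 200-bp windows with more reads than the highest of the library mean and the 5-kb and 10-kb means around them (exact Poisson test, one-sided, at an adjusted p of 0.01 after Benjamini and Hochberg), and a shared peak overlapped between the libraries. A shared peak had its summit in 261 CpG-rich promoters, or 4.89% (95% exact binomial interval 4.32 to 5.50), beside 4.12% of all promoters and 597 (3.86%) of the others. The number was 630 with library 1 alone, 350 with library 2 alone and 457 when any base of a shared peak in the window counted. Within the others it was 6.53% of the 6045 promoters with an observed/expected CpG of at least 0.5 and 2.14% of the 9421 below 0.5. When the whole window was instead tested against its flanks by the one-sided exact Poisson test at a q of 0.01, 1268 CpG-rich promoters (23.7%, interval 22.6 to 24.9) lay above them in both libraries. The same test called 15.6% of all promoters and 12.8% of the others. Of these 1268, 1011 had no shared peak. The peak and flank calls differ by construction. The 5-kb and 10-kb means include the peak itself and the flanks do not. Peaks were also adjusted over all 200-bp windows of the genome that held a read, and the flank test over promoters only. Without the 84 windows that held no read the shares were 4.96% and 24.1%. The RPM, as the mean of both libraries, was also summed over all CpG-rich windows, some of which overlap. The 261 promoters with a shared peak held 18.5% of this sum, and the highest 5% of promoters, 267 in number, held 20.4%.

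The signal was averaged by distance from the start in these classes. In the 261 promoters with a shared peak the mean density was highest at -175 bp, with 0.260 RPM per 50 bp in library 1 and 0.227 in library 2, and fell to about the density of the remaining promoters 2 kb away. In the 1011 promoters above their flanks without a shared peak, the density was 0.0653 RPM per 50 bp in library 1 and 0.0765 in library 2 at 25 bp after the start. Its highest values, 0.0863 and 0.0786, lay at 725 bp after the start in library 1 and 625 bp in library 2. In library 2 the density was almost as high before the start, with 0.0780 at -125 bp. The 4069 promoters with neither had 0.0332 and 0.0374 RPM per 50 bp at 25 bp after the start. The classes were defined by these reads and by whether a summit lay in the window, which sets the heights and the shapes of the curves and allows summits outside the window, so both are a description.

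**Figure D2:**
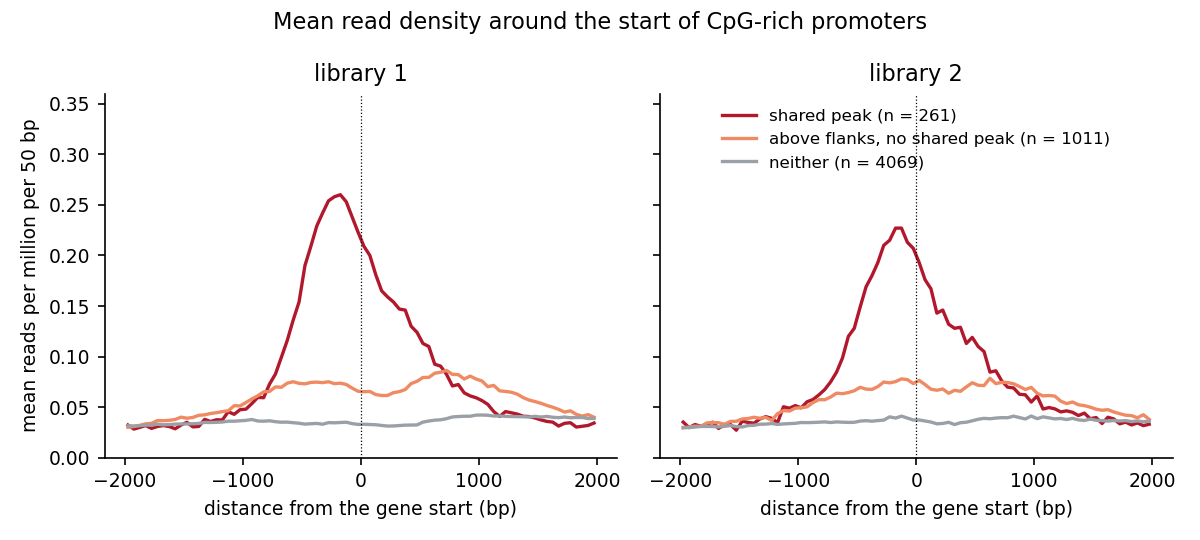
Mean RPM per 50 bp against the distance from the gene start in bp, for CpG-rich promoters with a shared peak (red, n = 261), above their flanks without a shared peak (orange, n = 1011) and with neither (grey, n = 4069), library 1 on the left and library 2 on the right. The red curve is a single peak that is highest at -175 bp in both libraries. The orange curve, whose class has no shared summit in the window, has its highest values 725 bp after the start in library 1 and 625 bp in library 2. In library 2 it is almost as high at -125 bp (0.0780).

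Most summits lay before the gene start. Summit positions came in steps of 50 bp, so no distance from a summit is known more finely than that step. Of the 261 promoters, 173 (66.3%) had the summit of their tallest shared peak before the start, 54 (20.7%) in an exon and 34 (13.0%) in an intron of the gene. The median position was -152 bp, with quartiles at -320 and 136 bp. Within 250 bp of the start lay 121 summits, or 46.4%. Neighbouring genes can share a peak, and the 261 promoters held 247 different summits. Their median height was 1.28 RPM per 200 bp in library 1 and 1.0 RPM in library 2, and that of all 23115 shared peaks on chromosomes 1 to 19 was 0.988 and 0.881 RPM. A GATA word lay within 100 bp of 130 of the 247 summits (52.6%), and the same letters in reversed order within 100 bp of 58 (23.5%). Within 50 bp the numbers were 100 (40.5%) and 37 (15%).

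Ranked by the lower of both libraries, the highest CpG-rich promoter was that of Ift20 and Tnfaip1, which start close together on opposite strands. Ift20 encodes a subunit of the transport particle of cilia, and Tnfaip1 an adaptor for a ubiquitin ligase. The window of Ift20 held 15.1 RPM in library 1 and 16.0 RPM in library 2, which was 30.6-fold and 34.9-fold over its flanks. Its summit lay 39 bp after the Ift20 start, in an exon, with 4.91 and 5.17 RPM. That window had no GATA word, and the nearest was 572 bp from the summit, while a word with the reversed letters lay 7.50 bp from it.

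Diaph3, a formin that builds actin filaments, was next with 13.5 and 15.4 RPM in libraries 1 and 2. Its summit at -15 bp had a GATA word, CTATCT on the plus strand, 27.5 bp away. Tcf3, an E protein that directs the development of B and T lymphocytes, had 12.9 RPM in library 1 and 14.8 RPM in library 2. Its summit at -303 bp was the tallest of all CpG-rich promoters by the lower of both libraries, with 218 and 157 reads in libraries 1 and 2 (p = 1.63e-103 and p = 9.64e-76 in the exact Poisson test, one-sided, unadjusted). The window held 4 GATA words, and the CTATCT printed above was the nearest to the summit. In these genes the libraries differed by less than 2 RPM, and both were far above the 95th percentile of their class.

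The rest of the 10 highest follow. Zfp213, a zinc finger gene, had 12.8 RPM in library 1 and 14.3 RPM in library 2, with its summit in an intron 438 bp after the start. BC003965 had 12.1 and 11.5 RPM. Lsm4, a subunit of a ring that binds small nuclear RNA and messenger RNA in decay, had 10.5 RPM in library 1 and 12.4 RPM in library 2. Its summit position, set in steps of 50 bp, lay 1.5 bp from the centre of the word TGATAG, in an intron 402 bp after the start. Rpl19, a protein of the large ribosomal subunit, had 11.6 RPM in library 1 and 10.3 RPM in library 2, with its summit at -260 bp. Wsb1, which hands proteins to a ubiquitin ligase, had 12.4 and 10.2 RPM, with its summit 21 bp after the start.

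Eif4enif1 stood apart among them. It encodes the protein that carries the cap-binding translation factor into the nucleus and represses bound messenger RNA, and its window held 10.5 RPM in library 1 and 10.9 RPM in library 2. This was only 2.39-fold and 2.58-fold over its flanks, whereas the other 9 of the 10 highest windows were between 13.3-fold and 36.6-fold over theirs. The summit at -342 bp reached 4.07 RPM in library 1 and 4.33 RPM in library 2. The summit position, also set in steps of 50 bp, lay inside the TTATCA printed above, with AGATAA before it. Ralgapb, a subunit of a regulator of Ral GTPases, had a summit of 4.86 RPM in library 1 and 6.09 RPM in library 2 at -448 bp, near the edge of its window.

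GATA words were more frequent above 1 RPM than below it. Promoters without a read in either library were left out of the shares by read level. All of the 10 promoters with at least 10 RPM in both libraries had a shared peak, and 8 had a GATA word. These 10 include Ift20 and Tnfaip1, whose windows overlap and hold the same summit. Of the 30 promoters from 5 to 10 RPM, 28 had a shared peak and 18 (60%, interval 40.6 to 77.3) a GATA word. From 2 to 5 RPM the share with a GATA word was 66.5% of 209 promoters (59.7 to 72.9), from 1 to 2 RPM 53.6% of 859 (50.1 to 56.9), from 0.5 to 1 RPM 38.6% of 2777, and below 0.5 RPM 26.7% of 1372. The reversed letters were present in 9 of the 10 highest, 33.3% from 5 to 10 RPM, 50.2% from 2 to 5 RPM, 45.5% from 1 to 2 RPM, 37.5% from 0.5 to 1 RPM and 32.1% below 0.5 RPM. The median GC content went from 61.1% at 2 to 5 RPM to 65.9% below 0.5 RPM. Hint1, an enzyme that cleaves purine phosphoramidates, and Slc7a1, a carrier of arginine and lysine, were the exceptions without a shared peak above 5 RPM, named after their values were seen. The nearest shared summit lay 567 bp after the start of Hint1 and 1154 bp after that of Slc7a1, outside their windows.

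Promoters without any GATA word in the window were found at every level, 2 of the 10 highest, 12 of the 30 from 5 to 10 RPM and 70 of the 209 from 2 to 5 RPM. The 2 were Ift20 and Tnfaip1, whose windows overlap and hold the same summit. After Ift20 and Tnfaip1 came Rbm27, which encodes an RNA-binding protein, with 11.2 and 9.13 RPM in libraries 1 and 2. Akap8, an anchor of protein kinase A in the nucleus, had 8.76 RPM in library 1 and 7.93 RPM in library 2, with its summit at -12 bp. Nhp2, a protein of the particles that guide RNA pseudouridylation, had 8.07 RPM in library 1 and 6.89 RPM in library 2, with its summit at -85 bp in the sequence printed above. At Akap8 and Nhp2 the nearest GATA word was 918 and 962 bp from the summit. Mcrs1, a subunit of chromatin complexes, did have 2 GATA words in its window, and the summit, with 3.46 and 2.68 RPM in libraries 1 and 2, lay 111 bp after the start, more than 100 bp from either word.

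The opposite case also occurred. Among promoters with 3 or more GATA words and a read in either library, the lowest was that of Zfp942, a zinc finger gene with 4 GATA words, which had 4 reads in library 1 and 1 read in library 2. Tbc1d30, which encodes a GTPase-activating protein for Rab proteins, had 4 GATA words with 0.494 and 0.361 RPM in libraries 1 and 2. Prrt4 had 3 words with 0.691 and 0.321 RPM in libraries 1 and 2. In library 2 all 3 were below the genome mean of 0.367 RPM. Reads without a unique position had been removed by the authors, and the part of this in these values was not tested.

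A GATA word was present in 2093 CpG-rich promoters, or 39.2%, against 70.8% of the other promoters and 62.7% of all. A shared peak was present in 180 of the 2093 with a word (8.60%, interval 7.43 to 9.88) and in 81 of the 3248 without (2.49%, interval 1.99 to 3.09), a ratio of 3.45. At other promoters the shares were 4.46% and 2.42%, a ratio of 1.84. For the reversed letters the ratio was also lower there, 0.839 against 1.59 at CpG-rich promoters. The difference in the level of whole windows was smaller. At CpG-rich promoters the median was 0.839 RPM with a GATA word and 0.667 RPM without in library 1, and 0.881 and 0.801 RPM in library 2. At other promoters it was lower with a word, 0.518 against 0.568 RPM in library 1 and 0.521 against 0.601 RPM in library 2. These others pool unlike groups. The 9421 with an observed/expected CpG below 0.5 held a word in 79.6% of cases, with medians of 0.444 and 0.441 RPM. The other 6045 held one in 57.1%, with medians of 0.691 and 0.761 RPM. The part of this mix in the comparison was not tested. With the CpG limit lowered to 0.65 the ratio of peak shares was 3.26. CpG-rich promoters with a word lay above their flanks in 32.3% of cases and those without in 18.2%. Of the CpG-rich promoters with a shared peak, 69.0% had a GATA word, and so did 37.7% of those without a peak.

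The share with a shared peak grew with the number of GATA words. It was 6.16% of 1494 promoters with 1 word, 11.6% of 455 with 2, 24.0% of 100 with 3 and 25% of 44 with 4 or more. The intervals, for counting error only, were 4.99 to 7.50% for 1 word, 8.85 to 15% for 2, 16.0 to 33.6% for 3 and 13.2 to 40.3% for 4 or more. The median level, as the mean of both libraries, went from 0.728 RPM without a word to 0.828, 0.953, 1.18 and 1.35 RPM. The same letters in reversed order served as a comparison. They have the same base composition, but can overlap a GATA word, as in a run of AGATAGA. The shares were 3.99% without such a word and 5.66%, 7.33% and 8.57% with 1, 2 and 3 copies. With 4 or more reversed copies it was 20% of 25 promoters, with an interval of 6.83 to 40.7% that overlaps that of 4 or more GATA words.

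**Figure D3:**
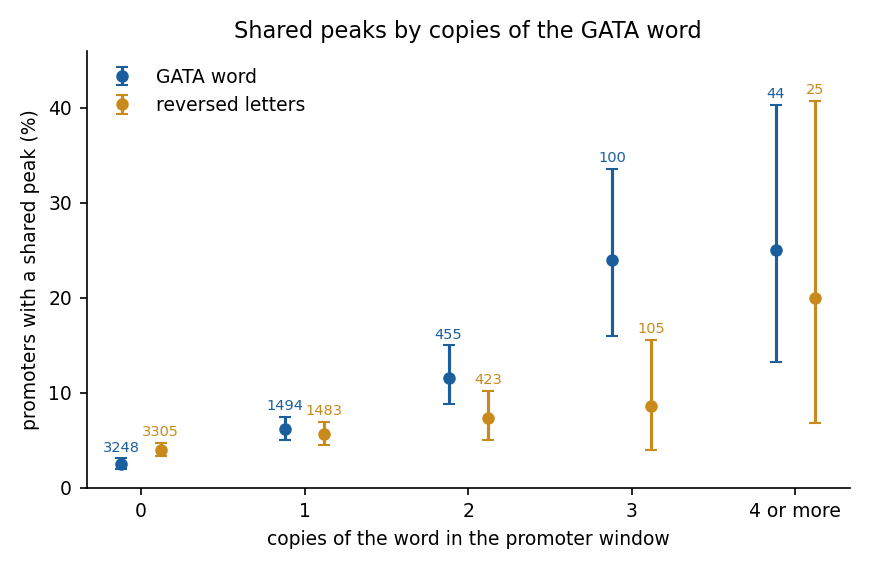
Share of CpG-rich promoters with a shared peak, in percent, against the copies of the GATA word (blue) and of the same letters in reversed order (amber) in the window. Points are shares, bars are 95% exact binomial intervals for counting error, and the number above each bar is the number of promoters. The GATA shares run from 2.49% at 0 copies to 24.0% at 3, and 25% at 4 or more, and those of the reversed letters from 3.99% to 8.57% and 20%.

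Base composition moved with the words, so the shares were also read within 4 equal bins of GC content. From the lowest to the highest bin, a shared peak was present in 9.83%, 9.68%, 8.78% and 3.08% of promoters with a GATA word and in 3.37%, 3.93%, 1.87% and 1.51% of those without. The share with a word was the higher in all 4 bins, and in the highest bin, with a GC content of 68.2 to 80.8%, the intervals overlapped (1.42 to 5.77% and 0.864 to 2.44%). With the reversed letters the shares with and without the word were 7.48% and 6.24% in the lowest bin and 2.73% and 1.64% in the highest. CpG content itself moved little with peaks, at 4.94%, 4.94%, 5.54% and 4.12% from the lowest to the highest of 4 bins of observed/expected CpG.

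Of the 12 sets of words searched, AGATAA by itself had the largest ratio of shares with and without the word. A shared peak was present in 13.0% of the 782 promoters with AGATAA and in 3.49% of the rest, a ratio of 3.74. For CCAAT, the word of NF-Y, the ratio was 1.6, for the AP-1 words TGACTCA and TGAGTCA 1.51, for the ETS word CCGGAAG 1.30, for the TATA box TATAAA 1.27 and for the NRF1 word CGCATGCG 1.15. It was 1.04 for the E box CACGTG, 0.929 for the RUNX word TGTGGT, 0.907 for the GC box GGGCGG, which 96.2% of CpG-rich promoters hold, and 0.839 for the CREB word TGACGTCA. All words were searched on both strands. Of all 20807 promoters, 70.3% held CCAAT, 61.4% the GC box, 58.4% the reversed letters, 41.6% the RUNX word, 32.2% the TATA box, 30% AGATAA, 19.5% the ETS word, 17.3% the E box, 12.1% an AP-1 word, 3.33% the CREB word and 3.30% the NRF1 word. Promoters with both a GATA and an ETS word had a shared peak in 9.71% of 690 cases, with GATA alone in 8.05% of 1403, with ETS alone in 3.10% of 1001 and with neither in 2.23% of 2247. A match is a run of letters and not a site shown to be bound.

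The position of a single word was read in the same way. Among promoters with exactly 1 GATA word, a shared peak was present in 5.55% of 649 with the word furthest before the start (position -500 to -300 bp), in 7.71% of 350 at -300 to -100 bp, in 7.63% of 131 within 100 bp, in 3.36% of 119 at 100 to 300 bp after, and in 6.12% of 245 further after. The intervals of all 5 bins overlapped. The median window level lay between 0.765 and 0.864 RPM in library 1 and between 0.841 and 1.0 RPM in library 2.

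Reads were denser around GATA words than around the reversed letters. Within 100 bp of the 2714 GATA words in CpG-rich promoters the mean was 0.345 RPM in library 1 and 0.306 RPM in library 2, and around 2604 reversed words it was 0.257 and 0.251 RPM. At sites with none of the other words within 200 bp, a choice made after the data were seen, the means were 0.336 and 0.290 RPM at 1465 GATA words and 0.198 and 0.203 RPM at 1416 reversed words. The medians also differed. The median over all sites was 0.198 RPM at GATA and 0.148 RPM at reversed words in library 1, and 0.200 and 0.160 RPM in library 2. At least 1 RPM in both libraries was reached by 115 GATA sites (4.24%) and 78 reversed sites (3.0%), and at the separated sites by 48 (3.28%) and 16 (1.13%).

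**Figure D4:**
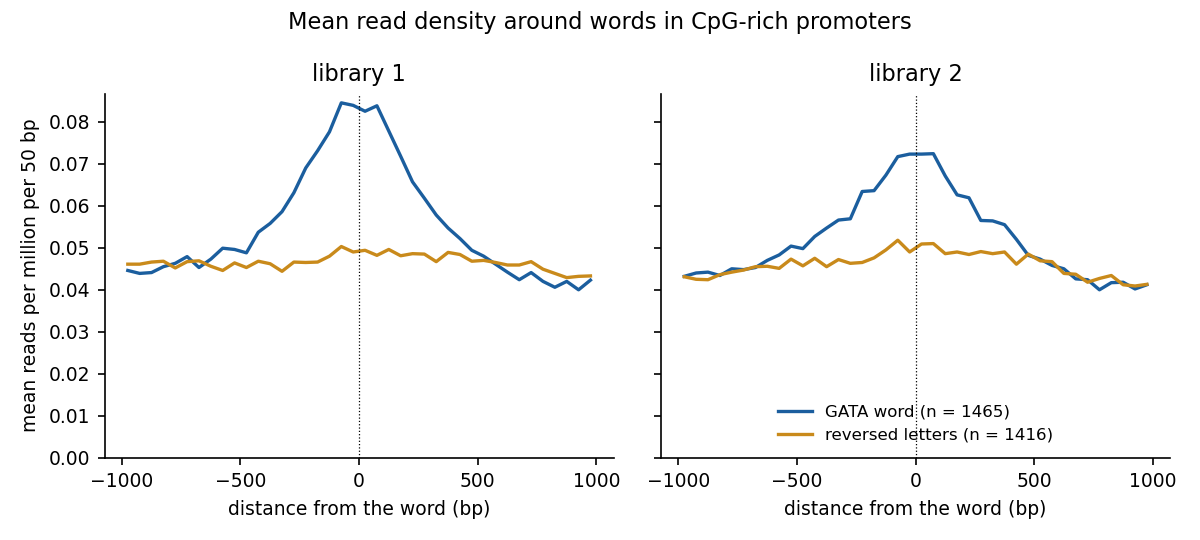
Mean RPM per 50 bp against the distance from the word in bp, for GATA words (blue, n = 1465) and reversed letters (amber, n = 1416) in CpG-rich promoters that have none of the other words within 200 bp, library 1 on the left and library 2 on the right. Just after the word the GATA curve stands at 0.0825 in library 1 and 0.0723 in library 2, the reversed curve at 0.0494 and 0.0509, and at 975 bp the curves lie together.

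Read density was also compared between the 4 GATA words. The mean within 100 bp was 0.420 RPM in library 1 and 0.343 RPM in library 2 at 838 AGATAA sites. It was 0.324 and 0.313 RPM at 773 AGATAG sites, 0.305 and 0.261 RPM at 548 TGATAA sites, and 0.303 and 0.283 RPM at 555 TGATAG sites. In both libraries AGATAA had the highest mean. Of the reversed words, AATAGA and AATAGT had 0.235 and 0.214 RPM in library 1 and 0.226 and 0.208 RPM in library 2, and GATAGA and GATAGT, which hold GATA themselves, had 0.297 and 0.293 RPM in library 1 and 0.291 RPM each in library 2.

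Of the genes the study centres on, some have CpG-rich promoters. Itgav, which encodes the integrin αv chain, belongs to the class and had 1.01 RPM in library 1 and 1.68 RPM in library 2. Its window was 1.06-fold and 2.0-fold over its flanks, held no GATA word and no shared summit, and ranked 1047 of 5341. By the one-sided exact Poisson test it lay above its flanks in library 2 (q of 2.67e-04) and not in library 1 (q of 0.713). The paper reports Gata3 binding at the Itgav promoter, and its text does not give the bounds of that region. Rad50, a DNA repair gene that lies among the TH2 cytokine genes, had 2.81 RPM in library 1 and 2.0 RPM in library 2. It had a shared peak 319 bp after its start, in an exon, with 1.21 and 0.761 RPM at the summit, and the TTATCT printed above lay 6.50 bp from it. Itgb3, which encodes the integrin β3 chain, had a GC content of 62.5% but an observed/expected CpG of 0.691 and fell outside, as did Gata3, Il4, Il5 and Il13. The Il13 promoter, with an observed/expected CpG of 0.242, had 8.25 RPM in library 1 and 7.37 RPM in library 2. Its window was 8.60-fold and 7.37-fold over its flanks but held no shared summit.

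Promoters of ribosomal protein genes had the highest median level of the gene lists. Of 39 CpG-rich ribosomal protein promoters 8 (20.5%) had a shared peak and 21 (53.8%) lay above their flanks, against 4.89% and 23.7% of all CpG-rich promoters. Their median level was 0.988 RPM in library 1 and 1.24 RPM in library 2. Besides Rpl19, shared summits included those of Rpl13, with 1.56 and 1.6 RPM in libraries 1 and 2, Rps19, with 0.815 and 0.801 RPM, and Rpl10a, with 1.33 and 0.721 RPM. The Rps19 window held no GATA word. The lowest of the list, Rpl36, had 0.593 and 0.641 RPM.

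For the other housekeeping lists, the same shares of all CpG-rich promoters, 4.89% and 23.7%, apply, and several lists lay near them. All 6 promoters of transfer RNA synthetase genes, whose enzymes charge transfer RNA with amino acids, lay above their flanks, with medians of 0.951 RPM in library 1 and 1.14 RPM in library 2, and 1, Mars, had a shared peak with a window level of 2.35 RPM in library 1 and 1.72 RPM in library 2. Of 22 respiratory chain promoters, 2 had a shared peak, Cox6a1 with 3.53 and 2.28 RPM and Uqcrq with 2.52 and 2.16 RPM, and 6 (27.3%) lay above their flanks. Of 23 spliceosome promoters, 1 with no read listed, 9 lay above their flanks and Sf3b3 had a shared peak, while Snrpb was highest with 2.62 and 3.65 RPM in libraries 1 and 2. None of 9 proteasome promoters had a shared peak and 3 (33.3%) lay above their flanks. Genes named Zfp had 4 shared peaks among 69 promoters (5.8%), with Zfp553 at 8.94 and 5.81 RPM and Zfp609 at 3.26 and 2.0 RPM after Zfp213.

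Lists of T cell and growth genes were read against the same 4.89% and 23.7%, and in lists of at most 20 promoters 4.89% amounts to less than 1 promoter. The medians of the 4 lists of T cell and early response genes lay between 0.765 and 0.913 RPM in library 1 and between 0.841 and 1.08 RPM in library 2. Of 43 TH2 and type 2 effector genes 11 (25.6%) belonged to the class, beside 25.7% of all promoters. Rad50 was the only one of them with a shared peak, and the highest was Zfpm1, a cofactor of GATA proteins, with 2.54 and 2.52 RPM in libraries 1 and 2 but only 1.08-fold and 1.13-fold over its flanks. Of 17 transcription factors of the T cell lineage, 1 with no read listed, Tcf3 and Tox2 had shared peaks, the latter with 1.26 and 1.20 RPM in its window, and 5 lay above their flanks. None of 6 T cell receptor signalling promoters had a shared peak, and Rel, an NF-kappaB subunit, was the highest with 2.15 and 2.60 RPM in libraries 1 and 2. Of 20 AP-1, Egr and other early response promoters, 1 with no read listed, those of Btg2, with 3.68 and 3.33 RPM, and Jun, with 1.68 and 2.44 RPM, had shared peaks. Of 18 chromatin regulators, Ctcf, which insulates chromatin domains, and Smarca4, an ATPase of the BAF complex, had shared peaks with window levels of 4.15 and 2.24 RPM and of 1.53 and 1.28 RPM. None of 13 mTOR and growth promoters had one, and Slc7a5, a carrier of large neutral amino acids, was the highest with 2.39 and 2.24 RPM. Above their flanks lay 1 of the 11 TH2 and type 2 promoters (9.09%), 1 of the 6 T cell receptor promoters (16.7%) and 7 of the 20 early response promoters (35%). The numbers were 4 of 18 (22.2%) for chromatin regulators and 3 of 13 (23.1%) for mTOR and growth genes.

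Developmental genes, whose CpG islands are known targets of Polycomb proteins, had the lowest levels of the lists. None of 9 Hox promoters and none of 38 promoters of other developmental transcription factors and Wnt ligands had a shared peak or lay above its flanks, beside 4.89% and 23.7% of all CpG-rich promoters, and 1 of the 38 had no read listed. In lists of these sizes 4.89% amounts to fewer than 2 promoters. The medians were 0.543 RPM in library 1 and 0.521 RPM in library 2 for Hox genes and 0.555 and 0.521 RPM for the other list, below the lists above in both libraries. In library 1 the distance to the proteasome promoters was small, as their medians were 0.568 and 0.841 RPM in libraries 1 and 2. GATA words were present in 4 of 9 Hox promoters (44.4%) and 17 of the 38 others (44.7%), against 39.2% of the class. The highest of them, Foxd2 and Hoxb9, had 0.667 and 0.815 RPM in library 1 and 0.962 and 0.641 RPM in library 2. Expression and chromatin state were not measured in these libraries.

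**Figure D5:**
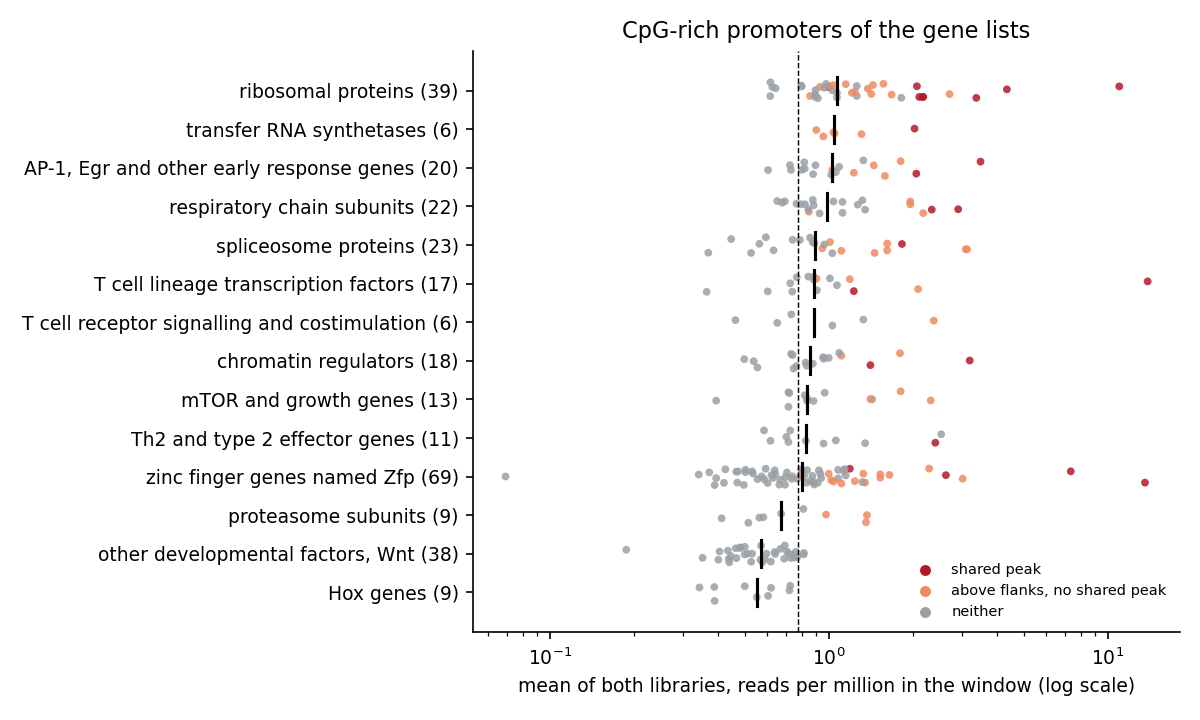
RPM in the window as the mean of both libraries, on a log axis, for the CpG-rich promoters of each gene list, 1 point per promoter with a read, red with a shared peak, orange above its flanks without one and grey with neither. Black bars are list medians, the dashed line is the median of all CpG-rich promoters, and numbers in brackets are members. Every point of the Hox and other developmental lists is grey, and ribosomal protein genes have the highest median.

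Read levels were alike on either side of the limits of the class. Promoters just inside the CpG limit, from 0.75 to 0.80 observed/expected, had medians of 0.716 RPM in library 1 and 0.801 RPM in library 2, the same values as those just outside, from 0.70 to 0.75. A shared peak was present in 4.86% of the former and 7.80% of the latter. Inside the GC limit, from 55 to 57%, 8.02% had a shared peak, and outside, from 53 to 55%, 7.27%. The 6045 other promoters with an observed/expected CpG of at least 0.5 had medians of 0.691 and 0.761 RPM, with 23.1% above their flanks and 57.1% holding a GATA word. The 9421 promoters below 0.5 had medians of 0.444 and 0.441 RPM, with 6.22% above their flanks and 79.6% holding a GATA word.

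Promoters that share their window with the start of a gene on the other strand had a shared peak about as often as the rest. Of 991 such CpG-rich promoters 49 (4.94%, interval 3.68 to 6.48) had a shared peak, and of 4273 without another gene start in the window 205 (4.8%, interval 4.18 to 5.48). More of the former lay above their flanks, 30% against 22%. Overlapping windows count the same reads more than one time, and joining them left 4822 regions.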

How the data were processed

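Per the study's methods, the authors used Bowtie2 (version 2.3.5.1) for alignment to GRCm38 and removed reads without a unique position. The submitters' processing notes also name MACS2 (2.1.2), with no role given. The deposited files give, for each read, its position, strand and the aligner's mapping quality score, which does not measure binding. No 2 reads of a library share a 5′ end and strand, so duplicates had been removed, which limits how high a peak can rise. Library 1 held 40526613 reads and library 2 held 24970952. Genes and starts came from GENCODE M21, sequence from the GRCm38 RefSeq genome. Reads were counted in 1001-bp promoter windows and in 200-bp windows every 50 bp, significant windows within 100 bp were joined, and peaks overlapping by 1 bp were called shared. Calls used p-values adjusted over all windows or all promoters. Zero-read windows were not analysed here as single genes.

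Members, gene lists and tests were chosen with earlier results of these data known. Named genes were the study's integrin and TH2 genes, the 10 highest promoters, the 5 highest without a GATA word, the 5 tallest summits with and without a GATA word near, the highest, the lowest and the peak-bearing members of each list, and the 3 lowest with 3 or more GATA words, leaving out windows without a read. Polh, Xpo5, Hint1 and Slc7a1 fell outside this rule and were chosen after their values were seen. Peak and flank tests were checked on simulated reads with planted sites and an even local background. That check does not cover background that varies between nearby stretches. Python 3.11.15, NumPy 2.4.6, SciPy 1.17.1, pandas 2.3.3 and Matplotlib 3.10.9 were used.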

Additional observations from a re-analysis of the deposited data

How the results depend on the processing

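No paired analysis was possible because only 1 group was measured. The number of CpG-rich promoters with a shared peak depended on the setting. It was 67 at a q of 1e-10, 58 at 5-fold or more over the local background, 457 with any base of a shared peak in the window, 121 and 550 in windows of 250 and 1000 bp either side, 399 with an observed/expected CpG of at least 0.65, 97 with at least 0.85 and a GC content of at least 60%, and 350 to 630 with either library left out, the higher value being that of library 1 alone. These differ by construction in stringency, area or class. The ratio of shares with and without a GATA word stayed above 1 in each setting tried. It was 3.17 at a q of 1e-10, 2.18 with any base, 4.58 and 3.87 in the narrower and wider windows, 3.26 in both other classes, 3.74 for AGATAA alone and 2.59 to 2.76 with a library left out. For the reversed letters in place of a GATA word it was 1.59. The cause of these moves was not tested. Promoters above their flanks numbered 326 at a q of 1e-10. The log2 ratio of reads around GATA to reversed words, 0.36, was 0.48, 0.47 and 0.24 at 200 to 300, 300 to 400 and 400 to 500 bp from the start, and 0.64 at separated sites, a choice made after the data were seen. Leaving out windows without a read, also chosen later, gave 4.96% with a shared peak and a ratio of 3.44. Depth limits what is seen at the median promoter, with 29 and 21 reads.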
